A study of Mus musculus with 10 samples.

Results

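Trp53, which encodes the transcription factor p53, was examined with 9 genes that report on its activity in lineage-negative (Lin-) bone marrow cells. These were the genes of its feedback inhibitors (Mdm2, Mdm4, Ppm1d and Ccng1) and 5 widely used transcriptional targets (Cdkn1a, Zmat3, Phlda3, Eda2r and Trp53inp1). The 10 genes were taken by symbol from the deposited table of 55359 genes, all 10 were found there, and all 10 were among the 18742 genes that passed a mean of 0.1 FPKM (fragment counts corrected for gene length and library size) and were tested. The study asked how loss of the RNA helicase DHX9 alters gene expression in blood-forming cells. It sequenced RNA of Lin- cells, which are marrow cells left after beads remove those that carry markers of mature lineages, from mice of 2 genotypes, Dhx9f/f (WT, 5 libraries) and Dhx9f/f;MX1 (cKO, 5 libraries). Both groups carry the floxed Dhx9 alleles, and the cKO mice also carry Cre recombinase under the Mx1 promoter, which responds to interferon and is active in many cell types besides blood cells. The study's methods induce this Cre with poly(I:C), a synthetic double-stranded RNA that provokes interferon, and do not state whether the WT mice sequenced here received it, so an effect of poly(I:C) cannot be told apart from that of the genotype if they did not. Mouse sex was randomized per the methods, but sex-linked transcripts were not balanced between the groups sequenced (below). Ages of the sequenced mice are not given in the sources used here.

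p53 is held at a low level in resting cells because the ubiquitin ligase MDM2 binds it and sends it for degradation, while the related protein MDM4 blocks its activity. Damage to DNA, faulty ribosome assembly and other stresses release p53, which then binds DNA as a tetramer and switches on genes for cell cycle arrest, cell death and repair. Mdm2, Ppm1d and Ccng1 are themselves p53 targets whose products restrain it, so they form negative feedback loops. In the marrow, p53 is known for limiting the self-renewal of stem cells and for removing damaged progenitors, and its regulation is largely at the level of the protein, which RNA-seq does not measure.

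The response element that p53 binds was taken here as 2 adjacent 10-base repeats. Each has 3 purines, then a C, a pair of bases that are A or T and a G (the core, such as CATG), and then 3 pyrimidines. This pattern reads the same on either strand. It was searched in GRCm39 within 5 kb on each side of the canonical start of each gene, with both cores intact and up to 2 mismatches among the 12 purine and pyrimidine positions. Matches were found in 3 of the 10 genes, and they are shown because these 3 genes are among the 5 called higher below. The cores are in capitals, and each sequence is written 5′ to 3′ on the strand of its gene.
Ccng1: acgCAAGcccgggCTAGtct
Cdkn1a: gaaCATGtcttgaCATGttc
Zmat3 in intron 1: aaaCAAGcccaggCATGtct
Zmat3 upstream: gagCAAGtctgggCTTGtta
The Ccng1 match lay at chr11:40645763-40645782 (minus strand), in intron 1, 366 bp downstream of the start, and held 1 mismatch. The Cdkn1a match, at chr17:29309902-29309921 (plus strand), was 2827 bp upstream of the canonical start and held 1 mismatch. The Zmat3 intron match, at chr3:32418480-32418499 (minus strand), was 1419 bp downstream of the start and held 0 mismatches, and the upstream match, at chr3:32424300-32424319 (minus strand), was 4401 bp from the start and held 1. Over the 18624 tested genes with an annotated start, a match with 0 mismatches was present in 0.268% of windows, one with up to 1 in 1.44% and one with up to 2 in 6.82%. Among the 858 of these genes that were called higher, the shares were 0.35%, 1.98% and 6.64%. A match is a run of letters, not a measured binding site, and the 7 genes without one only lack these letters in this window. Repeats with other bases between them were not searched.

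The libraries held 13837000 to 18711100 fragments, as read from the steps between low values, and 3 fragments in a gene of 1 kb would give 0.160 to 0.217 FPKM. The targeted gene went against the labels: Dhx9 was at 69.7 ± 2.84 FPKM in WT and 139.9 ± 12.0 FPKM in the libraries labelled cKO (SD, n = 5 each), and a gene-level value does not show which exons were read. Directions given below therefore rest on the labels. Xist, expressed from the inactive X, ranged from 99.19 to 127.76 FPKM in libraries 3 to 5 of WT and did not exceed 0.09 FPKM in the other 7. The Y-linked gene Ddx3y was at 0 to 0.05 FPKM in libraries 3 to 5 of WT and at 19.66 to 38.53 FPKM in the other 7. All 5 cKO libraries thus read as male and libraries 3 to 5 of WT as female, so sex was partly confounded with genotype. The groups also differed in cell markers: of 15 erythroid markers 8 were called higher and 0 lower (summed level 658 to 1772 FPKM in WT and 2356 to 3760 in cKO), whereas all 10 monocyte and dendritic cell markers (986 to 1718 against 9.29 to 308 FPKM), 4 of 10 neutrophil markers (2725 to 3698 against 147 to 2598), 5 of 8 B-lymphoid markers (28.3 to 36.2 against 0.94 to 8.66), all 7 megakaryocyte markers (275 to 1252 against 79.6 to 183) and 6 of 8 stem and progenitor markers (72.1 to 97.9 against 22.4 to 40.8) were called lower and none higher. Over all genes tested, 4.6% were called higher and 16.8% lower. No tested marker was at 0 in all libraries of a group. The part of these shifts in the results below was not tested, and in bulk RNA fewer cells of a type and less RNA per cell cannot be told apart. Library 1 of those labelled cKO stood apart from the other 4 in several of the 10 genes, and values without it are given where they matter.

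The p53 transcript itself did not pass the test with all libraries, while its targets ranged from small differences, as in Mdm2, to a 29.2-fold higher mean of Eda2r in the libraries labelled cKO. Of the 10 genes, 5 were called higher in cKO (Ccng1, Cdkn1a, Zmat3, Phlda3 and Eda2r) and 0 lower, where a call required an adjusted p under 0.05 (limma on log2(FPKM + 0.1), Benjamini-Hochberg over all genes tested) and a fold change of at least 2. Over all 18742 genes tested, 4.6% were called higher and 16.8% lower. At an adjusted p under 0.05 alone, 8 of the 10 genes were higher, with Mdm2, Ppm1d and Trp53inp1 added, where 16.7% of all genes were. All 5 libraries labelled cKO lay above all 5 WT libraries in 7 of the 10 genes, as in 10.6% of all genes tested. The median log2 fold change of the 10 genes was 0.97, against -0.11 for all genes tested.

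**Figure D1:**
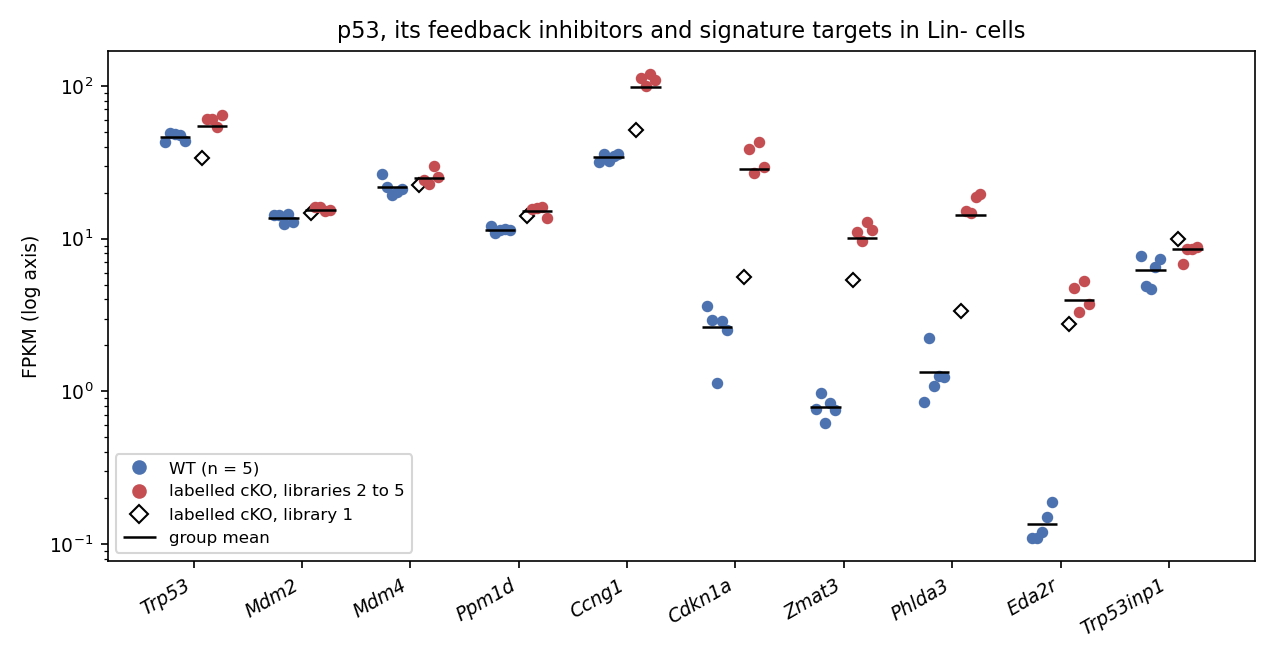
FPKM of the 10 genes on a log axis, with 1 point per library, WT in blue, libraries labelled cKO in red, library 1 of these as an open diamond, and the group mean as a bar. Mdm2, Mdm4 and Ppm1d stayed between 10.89 and 29.86 FPKM in both groups, whereas Cdkn1a, Zmat3, Phlda3 and Eda2r were at 0.11 to 3.65 FPKM in WT and at 2.77 to 42.6 FPKM in cKO.

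Trp53 (ENSMUSG00000059552; chromosome 11 of GRCm39 from 69469669 to 69482701, plus strand) had the highest FPKM of the 10 genes in WT cells. It was at 42.74, 48.87, 48.28, 48 and 43.77 FPKM in libraries 1 to 5 of WT and at 33.6, 60.46, 60.57, 53.84 and 64.62 FPKM in cKO libraries 1 to 5. Library 1 of the cKO group lay below all WT libraries and the other 4 lay above all of them. The means were 46.3 ± 2.85 and 54.6 ± 12.4 FPKM (SD, n = 5 each), and the log2 fold change of 0.20 (95% interval -0.14 to 0.55) did not pass the test (adjusted p = 0.323 by limma with Benjamini-Hochberg adjustment). The exact permutation test, two-sided, gave p = 0.310. Without cKO library 1 the remaining 4 averaged 59.9 ± 4.46 FPKM, and the log2 fold change was 0.37 (adjusted p = 0.00158 by limma), so the call for Trp53 at adjusted p alone turned on that library. Exons of Wrap53, on the opposite strand, overlap 3.6% of the exon bases of Trp53, and whether counting used the strand is not given in the sources used here.

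Mdm2 (ENSMUSG00000020184; chromosome 10 from 117524780 to 117546730, minus strand), the ubiquitin ligase gene and the best known feedback target, was at 14.25, 14.17, 12.42, 14.44 and 12.9 FPKM in WT and at 14.7, 16, 16.07, 15.07 and 15.32 FPKM in cKO. The groups did not overlap, but the gap between the highest WT and the lowest cKO library was narrow. The means of 13.6 ± 0.912 and 15.4 ± 0.594 FPKM (SD, n = 5 each) gave a log2 fold change of 0.18 (95% interval 0.03 to 0.32; adjusted p = 0.0458 by limma). The exact permutation test gave p = 0.00794, the smallest that 5 against 5 allow. This difference was close to the threshold: leaving out WT library 2, 3 or 5 or cKO library 2, 3, 4 or 5 raised the adjusted p by limma to between 0.0563 and 0.0996.

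Mdm4 (ENSMUSG00000054387; chromosome 1 from 132887222 to 132958299, minus strand), whose product binds p53 and blocks its activity, was at 26.43, 21.68, 19.36, 20.16 and 21.07 FPKM in WT and at 22.48, 24.08, 22.71, 29.86 and 25.28 FPKM in cKO. WT library 1 lay above 4 of the 5 cKO libraries, so the groups overlapped. Its log2 fold change of 0.19 (95% interval -0.03 to 0.42) did not pass the test (adjusted p = 0.147 by limma), and passed it without WT library 1 (adjusted p = 0.0379).

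Ppm1d (ENSMUSG00000020525; chromosome 11 from 85202017 to 85239268, plus strand) encodes the phosphatase WIP1, which removes activating phosphates from p53 and from the kinases that signal DNA damage. It was at 12.05, 10.89, 11.42, 11.5 and 11.4 FPKM in WT and at 14.05, 15.73, 15.89, 16.13 and 13.56 FPKM in cKO, with a clear gap between the groups. The means were 11.5 ± 0.412 and 15.1 ± 1.18 FPKM (SD, n = 5 each), and the log2 fold change was 0.39 (SE 0.0702; adjusted p = 0.00114 by limma), below the fold change limit for a call. Of the feedback genes that were not called, Ppm1d was the one whose adjusted p stayed under 0.05 in all 22 settings examined.

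Ccng1 (ENSMUSG00000020326; chromosome 11 from 40639377 to 40646148, minus strand) encodes cyclin G1, which recruits a phosphatase to MDM2. It was at 31.81, 35.9, 32.16, 34.64 and 35.63 FPKM in WT and at 51.23, 113.16, 100.03, 119.59 and 109.48 FPKM in cKO. Library 1 of the cKO group lay above WT but far below the other 4, which were at 100.03 FPKM or more. Ccng1 rose from 34.0 ± 1.93 to 98.7 ± 27.5 FPKM (mean ± SD, n = 5 each), with a log2 fold change of 1.47 (SE 0.20, 95% interval 1.03 to 1.92; adjusted p = 2.50e-04 by limma). Its mean FPKM was the highest of the 10 genes in the cKO group.

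Cdkn1a (ENSMUSG00000023067; chromosome 17 from 29309936 to 29319701, plus strand) encodes p21, the inhibitor of cyclin-dependent kinases (CDKs) through which p53 arrests the cell cycle. It was at 3.65, 2.95, 1.13, 2.9 and 2.54 FPKM in WT and at 5.57, 38.64, 26.71, 42.6 and 29.54 FPKM in cKO. All cKO libraries lay above WT, but library 1 was nearer to WT than to the other 4, whose median was 6.12 times its level. Cdkn1a rose from 2.63 ± 0.932 to 28.6 ± 14.4 FPKM (mean ± SD, n = 5 each), with a log2 fold change of 3.21 (SE 0.518, 95% interval 2.06 to 4.35; adjusted p = 6.22e-04 by limma), with rank 65 of 18742 by size of rise and rank 300 by size of change in either direction. Exons of the noncoding gene Dino, on the opposite strand, overlap 8.3% of its exon bases, and Dino averaged 0.712 FPKM over the 10 libraries.

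Zmat3 (ENSMUSG00000027663; chromosome 3 from 32388941 to 32420163, minus strand), which encodes an RNA-binding zinc finger protein that acts in splicing and growth suppression downstream of p53, was at 0.77, 0.97, 0.62, 0.84 and 0.76 FPKM in WT and at 5.34, 10.98, 9.7, 12.94 and 11.37 FPKM in cKO. Every cKO library was several times above every WT library, library 1 included. Zmat3 rose from 0.792 ± 0.128 to 10.1 ± 2.88 FPKM (mean ± SD, n = 5 each), with a log2 fold change of 3.46 (SE 0.226; adjusted p = 1.39e-05 by limma).

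Phlda3 (ENSMUSG00000041801; chromosome 1 from 135693809 to 135697686, plus strand) encodes a pleckstrin homology domain protein that restrains AKT. It was at 0.85, 2.24, 1.08, 1.27 and 1.24 FPKM in WT and at 3.34, 15.22, 14.71, 18.77 and 19.7 FPKM in cKO. As for Cdkn1a, library 1 of the cKO group was above WT and below the others, whose median was 5.09 times its level. Phlda3 rose from 1.34 ± 0.532 to 14.3 ± 6.52 FPKM (mean ± SD, n = 5 each), with a log2 fold change of 3.18 (SE 0.451; adjusted p = 3.14e-04 by limma).

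Eda2r (ENSMUSG00000034457; chromosome X from 96320270 to 96420847, minus strand) encodes a receptor of the TNF receptor family that binds ectodysplasin A2. It was at 0.11, 0.11, 0.12, 0.15 and 0.19 FPKM in WT, the lowest of the 10 genes, and at 2.77, 4.77, 3.32, 5.29 and 3.73 FPKM in cKO. These levels correspond to about 14 to 615 fragments per library, so the WT values rest on few fragments. Eda2r rose from 0.136 ± 0.0344 to 3.98 ± 1.04 FPKM (mean ± SD, n = 5 each), with a log2 fold change of 4.08 (SE 0.222, 95% interval 3.59 to 4.57; adjusted p = 7.32e-06 by limma), with rank 29 of 18742 by size of rise and rank 89 by size of change in either direction. This value was the largest of the 10 at the pseudocount of 0.1 but depends on it: with a pseudocount of 1 the log2 fold change was 2.11 for Eda2r, below 2.82 for Cdkn1a, 2.58 for Zmat3 and 2.56 for Phlda3, and with 0.01 it was 4.76. Because the gene is X-linked and Xist divided the WT libraries, the fit was repeated with only the 7 libraries with Xist under 1 FPKM, and the log2 fold change was then 4.24.

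Trp53inp1 (ENSMUSG00000028211; chromosome 4 from 11156412 to 11175230, plus strand) encodes a stress-induced nuclear protein that supports p53-dependent death and autophagy. It was at 7.71, 4.92, 4.67, 6.53 and 7.32 FPKM in WT and at 9.95, 6.83, 8.54, 8.61 and 8.83 FPKM in cKO. The groups overlapped, since 4 of the 5 cKO libraries lay above all WT libraries, and cKO library 1, which was the lowest for the called genes, was here the highest. The means were 6.23 ± 1.38 and 8.55 ± 1.12 FPKM (mean ± SD, n = 5 each), with a log2 fold change of 0.47 (95% interval 0.12 to 0.82; adjusted p = 0.0322 by limma) and p = 0.0238 by the exact permutation test. Leaving out WT library 2 or 3 or cKO library 1, 3, 4 or 5 raised the adjusted p by limma to between 0.0583 and 0.0780.

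**Figure D2:**
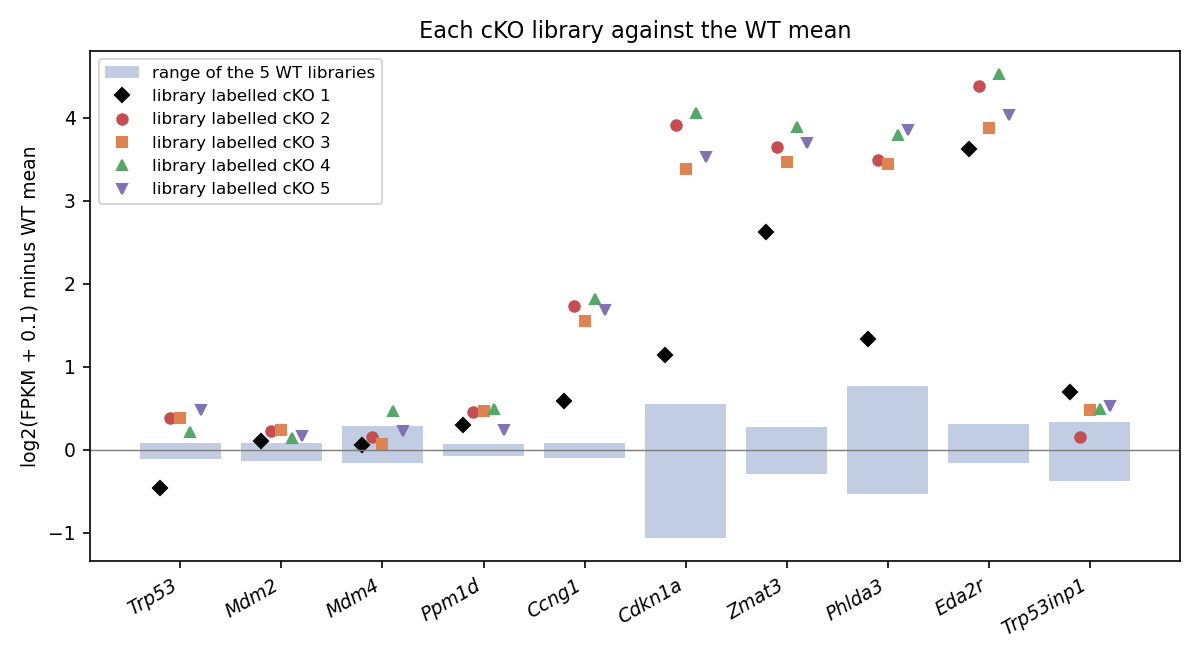
Log2(FPKM + 0.1) of each library labelled cKO minus the WT mean, for the 10 genes, with the range of the 5 WT libraries as a shaded box. Library 1, the black diamond, was the lowest of the 5 for Trp53, Mdm2, Mdm4 and each of the 5 called genes, at 1.14 for Cdkn1a and 3.62 for Eda2r. It was the highest for Trp53inp1.

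The 5 called genes therefore differed in how far library 1 of the cKO group departed from the other 4. The median of cKO libraries 2 to 5 over cKO library 1 was 6.12 for Cdkn1a, 5.09 for Phlda3, 2.17 for Ccng1, 2.09 for Zmat3 and 1.53 for Eda2r. It was 1.80 for Trp53, and between 0.862 and 1.13 for Mdm2, Mdm4, Ppm1d and Trp53inp1. The library was also the shallowest, at 13837000 fragments, and its summed neutrophil marker level was the highest of the cKO group, at 2598 FPKM. The part of either in its lower values was not tested. Without it, the same 5 genes were called, with log2 fold changes of 1.70 for Ccng1, 3.72 for Cdkn1a, 3.67 for Zmat3, 3.64 for Phlda3 and 4.20 for Eda2r.

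The order of transcript levels, which FPKM allows because it is scaled to gene length, changed between the groups. In WT it was Trp53, Ccng1, Mdm4, Mdm2, Ppm1d, Trp53inp1, Cdkn1a, Phlda3, Zmat3 and Eda2r, and neighbours were apart in every library except for Cdkn1a with Phlda3 and Phlda3 with Zmat3, whose ranges overlapped. In the cKO group it was Ccng1, Trp53, Cdkn1a, Mdm4, Mdm2, Ppm1d, Phlda3, Zmat3, Trp53inp1 and Eda2r, and of these neighbours only Mdm4 with Mdm2 and Trp53inp1 with Eda2r had ranges that did not overlap. Among all genes tested, Cdkn1a moved from percentile 45.8 to 88.7 of mean level and Eda2r from 6.37 to 56.1, whereas Trp53 went from 93.9 to 94.7.

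Mdm2 and the other targets answer to the same factor, so each was set against Mdm2 within the same library. The log2 ratio to Mdm2 was higher in the cKO group by 1.30 for Ccng1, 3.03 for Cdkn1a, 3.28 for Zmat3, 3.0 for Phlda3 and 3.90 for Eda2r, with no overlap of the groups (exact permutation p = 0.00794 for each, 0.0111 after Benjamini-Hochberg adjustment over the 7 genes compared). For Ppm1d the difference was 0.21 (exact permutation p = 0.0159, adjusted 0.0185). For Trp53inp1 it was 0.29 and did not pass (exact permutation p = 0.151, adjusted 0.151). The 5 called genes thus rose by more than Mdm2 did in these libraries. Mdm2 itself differed by only 0.18, so for these 5 the ratios largely restate the calls and are no separate test of them.

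Other genes of the pathway were taken from lists drawn up from general knowledge, with earlier results of these data known. Their counts are therefore a description. Of 41 other p53 targets tested, 11 were called higher (26.8%) and 5 lower, with a median log2 fold change of 0.29, where 4.6% of all genes tested were called higher and 16.8% lower. Without cKO library 1 the counts were 12 and 5. Of the arrest genes, 4 of 6 were called higher and 0 lower (median 1.30), and of the death genes 4 of 12 and 0 (median 0.72), with 1 gene in each list lower at adjusted p alone. In repair and metabolism 1 of 11 was called higher and 2 lower (median 0.13), and in a mixed remainder 2 of 12 were higher and 3 lower (median 0.01).

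Among arrest genes, Gadd45a, which binds PCNA and CDK1 after DNA damage, rose from 16.5 ± 0.956 to 42.2 ± 8.86 FPKM (SD, n = 5 each; log2 fold change 1.32). Plk3, a stress-activated polo-like kinase, had a log2 fold change of 1.92 and Sfn, which encodes 14-3-3 sigma, one of 1.28, and all 3 were called. The microtubule-associated Gtse1 (0.69) was higher, and the antiproliferative gene Btg2 (-0.48) lower, at adjusted p alone. Among death genes, the BH3-only genes Pmaip1 (NOXA, 1.96) and Bbc3 (PUMA, 1.45) and the membrane protein gene Perp (1.65) were called higher, while Bax, the pore-forming effector, went from 31.6 ± 2.52 to 56.3 ± 9.12 FPKM (0.82) and stayed under the fold change limit. Apaf1, the core of the apoptosome, differed by -0.81 with no overlap of the groups, also under that limit; Apaf1 and Btg2 were picked after their values were seen. Steap3, a ferric reductase of red cell precursors, differed by 0.02 and did not pass. Sesn2, which restrains mTORC1 and also answers to amino acid shortage, rose (1.36), though its level in cKO library 1 was 4.2 FPKM against 14.55 to 21.75 in the other 4. The damage recognition gene Xpc fell by 1.62 on the log2 scale and Tigar, a fructose bisphosphatase, by 2.53, and Sesn1, a relative of Sesn2, differed by -0.46. The lysosomal membrane gene Dram1 fell by 3.53 and the semaphorin receptor gene Plxnb2 by 3.28, while the most abundant genes of that list, Rps27l (0.54) and Pml (0.07), were not called. Named only to complete these counts, after their values were seen, are genes with a mean under 1 FPKM: Plk2, Tnfrsf10b, Lif and Trp53cor1 were called higher and Epha2 lower.

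**Figure D3:**
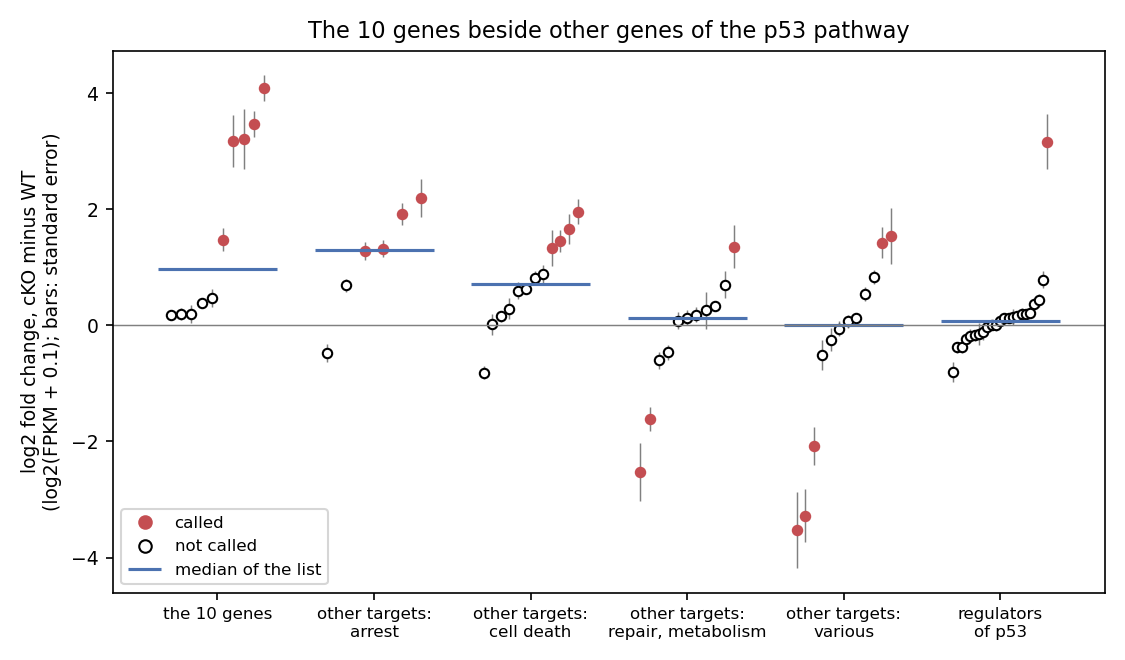
Log2 fold change, cKO minus WT, of the 10 genes and of other p53 targets and regulators by list, with the standard error as a bar, called genes filled and the list median as a line. The 10 genes divide into 5 between 0.18 and 0.47 and 5 between 1.47 and 4.08, and called genes below 0 appear in the repair and metabolism list and in the mixed list.

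Of 23 regulators and cofactors of p53 tested, 1 was called higher and 0 lower, with a median log2 fold change of 0.08; 1 of 23 is close to the 4.6% called higher over all genes. The called gene, lost with a pseudocount of 1 or with only genes averaging 1 FPKM or more tested, was Cdkn2a, named after its values were seen, whose alternative product p19Arf inhibits MDM2. It was listed at 0 in 4 WT libraries and at 0.11 FPKM in the other, and at 1.97, 1.04, 0.64, 1.77 and 0.27 FPKM in cKO libraries 1 to 5, and a gene-level value does not separate its p16 and p19 transcripts. The most abundant regulators were not called: Usp7, the deubiquitinase of MDM2 and p53, differed by 0.37 and Rpl11, a ribosomal protein that can bind MDM2, by 0.08. Of 18 cell cycle genes that p21 represses through the DREAM complex, 0 were called by limma, with 3 higher and 5 lower at adjusted p alone and a median of 0.05, close to the 16.7% higher and 28.3% lower at adjusted p alone over all genes. Mki67 differed by 0.35 and Top2a by -0.45.

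A list of 15 targets of the amino acid response, a stress programme led by the factor ATF4, was set beside the 10 genes because cKO library 1 also stood apart in it. Of these 15 genes, 11 were called higher and 0 lower, with a median of 1.32. Over all genes tested, 4.6% were called higher and 16.8% lower, with a median of -0.11. The log2 fold change was 6.43 for the pseudokinase gene Trib3, 5.60 for Cth, 4.53 for the arginine transporter gene Slc7a3 and 2.78 for Chac1, which were called. Of the most abundant genes, Asns (asparagine synthetase, 1.95) was called and Atf4 (0.81) was not. The mean log2(FPKM + 0.1) of the 15 genes was 2.23 to 2.34 in WT, 3.01 in cKO library 1 and 4.74 to 5.10 in cKO libraries 2 to 5. For the 10 genes the same mean was 2.22 to 2.55 in WT, 3.45 in cKO library 1 and 4.19 to 4.44 in the other 4. Erythroid markers did not show this order, since cKO library 1 was at 6.95 and the other 4 at 6.52 to 6.94. Megakaryocyte markers showed it downward, at 3.67 to 5.47 in WT, 3.07 in cKO library 1 and 1.80 to 2.81 in the other 4. The other marker lists did not, and neutrophil markers were highest in cKO library 1 (7.04). The part of these programmes or of the cell mix in the levels of the 10 genes was not tested.

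**Figure D4:**
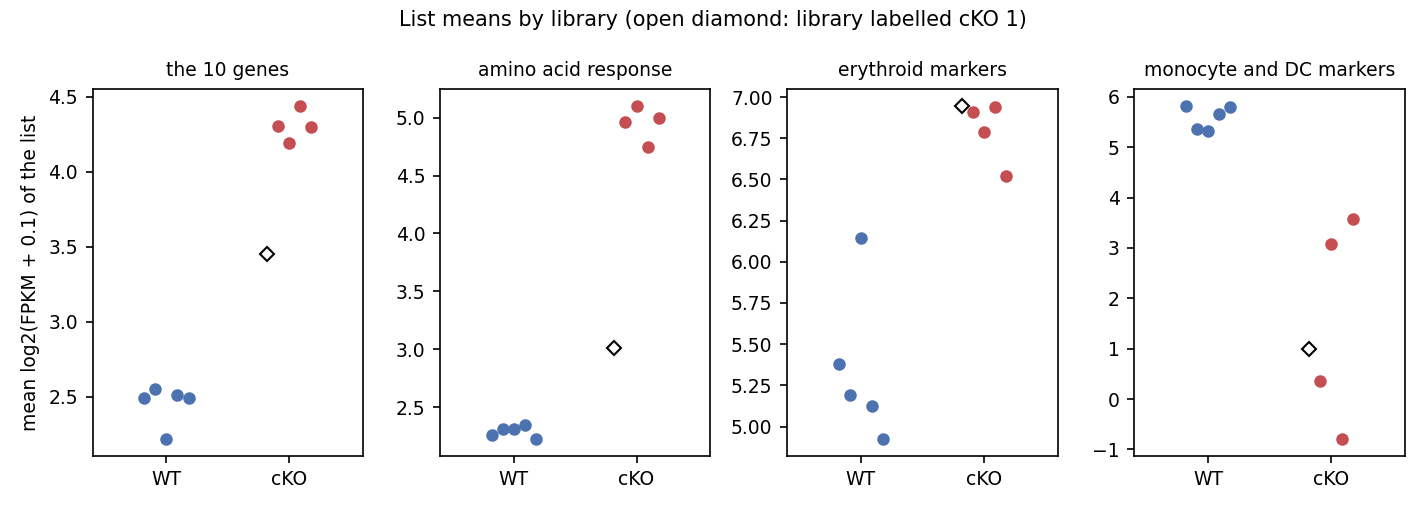
Mean log2(FPKM + 0.1) of the 10 genes, of 15 amino acid response genes, of 15 erythroid markers and of 10 monocyte and dendritic cell (DC) markers, with 1 point per library and its own axis range for each panel. Library 1 of the cKO group, the open diamond, lay between the WT and the other cKO libraries for the 10 genes (3.45) and the amino acid response genes (3.01), but not for the erythroid markers (6.95).

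The 10 genes did not share a single profile. Profiles of log2(FPKM + 0.1) over the 10 libraries were standardised, and their likeness was measured as the root-mean-square distance, where 0 is identity; this is a description, since all profiles share the same libraries and group division. The closest pairs were Zmat3 with Eda2r (0.136) and Ccng1 with Phlda3 (0.138), and the most distant was Trp53 with Trp53inp1 (1.38). Of 12341 other genes that averaged 1 FPKM or more, those nearest to Trp53 were Bckdhb (0.123), Stub1 (0.158) and Ddx31 (0.202), each of which was, like Trp53, lowest in cKO library 1. Those nearest to the mean profile of Mdm2, Ppm1d, Ccng1 and the 5 targets were Mttp (0.139), Rasa1 (0.144), Rbm15 (0.161), Resf1 (0.171) and Cldn10 (0.173). Mttp, for example, was at 0.45 to 0.61 FPKM in WT, at 1.11 FPKM in cKO library 1 and at 1.72 to 1.96 FPKM in the other 4. Mttp and Cldn10 averaged 0.536 and 0.332 FPKM in WT and 1.71 and 2.47 FPKM in cKO. They thus passed the filter of 1 FPKM only through the cKO group, and their likeness is partly set by that filter.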

How the data were processed

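The authors trimmed the reads, aligned them to GRCm39 and deposited 1 table of FPKM per gene and library. The submitters' processing notes name cutadapt 1.9.1, HISAT2 2.0.1 and HTSeq 0.6.1. The annotation, gene lengths and strand setting behind the FPKM are not given in the sources used here. FPKM are not counts, so the count test of the study was replaced by limma 3.58.1 (R 4.3.3, lmFit and eBayes with a trend, two-sided) on log2(FPKM + 0.1), fitted on all 10 libraries and adjusted by Benjamini-Hochberg over the 18742 genes that averaged 0.1 FPKM or more. This scale understates the change of low genes. The thresholds for a call, an adjusted p under 0.05 with a fold change of 2 or more, are those of the study. Exact permutation tests of single genes used Python 3.11.15 and scipy 1.17.1. The 10 columns were mapped by name to a label and replicate number, and no pair of libraries within a group was a duplicate. Pairs across the groups were not compared in this way. The labels do not say that replicates are separate mice (the paper's methods count individual mice), so p-values measure the spread between these libraries.

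Depth was read from genes whose low FPKM fall on whole multiples of 1 fragment (95.9% to 96.3% of low values per library, within 0.2 of a whole number, where 40% would by chance). The floor of 3 fragments covers counting error only, and the 95% intervals of limma cover the spread between libraries. Of the identifiers, 54749 (98.9%) are in GENCODE M39, which gave symbols, positions and response element windows. Fragment numbers use its exon lengths and are approximate.

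The members and lists were chosen with earlier results of these data known. The lists were regulators of p53, its other targets in 4 lists, DREAM targets, other CDK inhibitors, amino acid response, interferon response and 6 lists of cell markers. Named genes were the members, Dhx9, Xist, Ddx3y and the genes nearest in profile to Trp53 (3) and to the mean of the targets (5). Per list, up to 4 called genes that averaged 1 FPKM or more and the 2 of highest level were also named. For the marker lists only sums, list means and counts are given. The alternatives tried were pseudocounts of 0.01 and 1, testing all genes above 0 or only those averaging 1 FPKM or more, scaling by median ratio, equal sum or quantiles, a fit without the trend, a replicate block, Xist as a covariate or only libraries with Xist under 1 FPKM, adjusted p alone, and each library left out. Recomputing the counts of other p53 targets, and of members at adjusted p alone, under these settings was chosen after seeing the data. Only the limma step was tested on simulated data, with changes placed in genes averaging 1 FPKM or more. The spread between the simulated libraries was set in advance, not taken from these data.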

Additional observations from a re-analysis of the deposited data

Results flagged for a closer look

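Ccng1 in library 1 of those labelled cKO, at 51.23 FPKM, lay farther from the other 4 libraries of its group (100.03 to 119.59 FPKM) than Dixon's limit for 5 values allows. It was 1 of 20 groups of 5 libraries examined, 10 genes in each of 2 groups, and chance alone gives about 1 in 20. The value still lay above all 5 WT libraries, and the cause was not tested.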

How the results depend on the processing

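The 5 called genes were called, and all 10 log2 fold changes were above 0, in all 22 settings, including each library left out. With adjusted p alone, 3138 genes were higher and 5300 lower (862 and 3153 with the fold change limit) and 8 members were higher. A pseudocount of 1 gave 356 and 1486, and a mean of at least 1 FPKM gave 462 and 1827, by testing fewer genes, and both gave 7 other p53 targets higher in place of 11. Quantile normalization gave 1581 higher (41.3% of calls against 21.5%) and shifted the median over all genes tested from -0.11 to 0.10 (log2). Using only libraries with Xist under 1 FPKM gave 541 genes higher and 3 other p53 targets lower in place of 5. Members at adjusted p alone numbered 6 to 9 over the settings: Mdm2 passed in 9 of 22, Trp53inp1 in 14, Mdm4 in 2 and Trp53 in 1, and with Xist as a covariate the adjusted p by limma was 0.338 for Mdm2 and 0.144 for Trp53inp1. Not all same-numbered libraries of the 2 groups deviated together (correlations of -0.077 to 0.193 over 12353 genes, 3 of 5 libraries nearest to their own number). This neither shows nor excludes a pairing by number. With the replicate number as a block, 857 genes were higher and 3107 lower, 5 members were called, 7 were higher at adjusted p alone, and 10 other p53 targets were higher and 5 lower. Without any 1 library, 764 to 950 genes were higher and 2880 to 3248 lower. Levels near 0.2 FPKM, as of Eda2r in WT, rest on few fragments.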

Other observations

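Of 5 CDK inhibitor genes other than Cdkn1a, 1 was called higher and 2 lower (4.6% and 16.8% of all genes tested). With only libraries with Xist under 1 FPKM, 1 was called lower. Cdkn2d (p19Ink4d) fell from 23.5 ± 2.16 to 9.87 ± 3.16 FPKM (mean ± SD, n = 5 each), the log2 change being -1.29, and Cdkn2c (p18) fell by 1.36 on the log2 scale, and both were called by limma. Cdkn1b (p27) was at 28.0 ± 6.60 FPKM in WT and 15.3 ± 5.93 FPKM in cKO, a log2 fold change of -0.90, under the fold change limit. In cKO library 1, Cdkn2c was at 21.74 FPKM and Cdkn1b at 25.7 FPKM, within the WT range, against 5.87 to 8.47 FPKM and 10.52 to 13.65 FPKM in the other 4. Cdkn2b (p15), named after its values were seen, was at 0 to 0.14 FPKM in WT and 0.63 to 2.31 FPKM in cKO and was the gene called higher. It averaged 0.054 FPKM in WT, so it passed the filter of 0.1 FPKM only through the cKO group. With only genes averaging 1 FPKM or more, 3 of the 5 were tested and 0 called higher.

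Of 10 interferon response genes, 0 were called higher by limma (0 also at adjusted p alone) and 1 lower, a share not above the 16.8% called lower over all genes. The call was lost with a pseudocount of 1 and with only libraries with Xist under 1 FPKM. That gene was Mx1, whose promoter drives the Cre, at 3.31 ± 0.314 FPKM in WT and 1.26 ± 0.780 FPKM in cKO (SD, n = 5 each). The most abundant genes of the list, Isg15 (log2 fold change 0.83) and Oas1a (-0.84), did not pass the test. The mean log2(FPKM + 0.1) of this list was 2.95 and 3.11 in cKO libraries 1 and 3, 0.12 to 0.68 in cKO libraries 2, 4 and 5, and 1.36 to 2.32 in WT, an order that the 10 genes around p53 did not share.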
